A study of Mus musculus with 4 samples.

Results

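The genes of iron storage, iron transport, hepcidin and metallothionein were examined in liver RNA of FVB/N mice. By symbol, 10 genes were chosen, and 7 of them were among the 7000 genes of the deposited RNA-Seq table: Trf, Cp, Tfr2, Mt1, Hmox1, Mt2 and Tfrc. Hamp, Fth1 and Ftl1 were not listed, so no level is given for them. The 7000 rows are sorted by the p-value of the authors' diet comparison, so a gene that is not listed need not be undetected. Male mice were put on the diets at weaning. In the 0 Se group, 2 mice received the Se-deficient diet with 0 ppm Se added. In the 0.1 Se group, 2 mice received the diet supplemented with 0.1 ppm Se as sodium selenite. Both diets were fed for 6 weeks, and ribosomal RNA was removed from the total liver RNA before sequencing.

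The deposited table holds for each gene the length of its mRNA and the log2 of the mean CPM (read counts scaled to the library total) over all 4 libraries, both diets pooled. It has 0 columns for single mice. The only columns that separate the diets are the results of the authors' own comparison, and these were not used. A difference between 0 Se and 0.1 Se mice was therefore not tested for any of the 10 genes, and the levels below have no spread between mice. The depth of each library is unknown from the columns used, and no counting interval is given. RNA of bulk liver cannot tell fewer cells of a type apart from less RNA per cell.

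Iron reaches hepatocytes bound to transferrin, the plasma carrier encoded by Trf, and enters cells through the transferrin receptor encoded by Tfrc. Inside the cell it is held in ferritin, a shell of heavy (Fth1) and light (Ftl1) subunits, and it leaves through ferroportin (Slc40a1), which the liver hormone hepcidin (Hamp) removes from the cell surface. Iron regulatory proteins bind a short RNA hairpin, the iron-responsive element: in a 5′ UTR it lowers translation when iron is scarce, and in a 3′ UTR it protects the mRNA. Metallothioneins (Mt1 and Mt2) are small cysteine-rich proteins that bind zinc and copper, and their transcription rises with zinc through Mtf1 and its binding sites, the metal-responsive elements.

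The mRNAs of the group were searched for the hairpin as an unpaired C, 5 stem bases, the loop CAGTGN and 5 bases that pair with the stem, on the mRNA strand. Annotated mRNAs were found for 9 of the 10 genes; for Tfr2 none was found. A match was present in 3 of these 9, namely Fth1, Ftl1 and Tfrc. With Watson-Crick pairs only, 56 of 22754 annotated mRNAs (0.246%), 1 for each gene, held a match anywhere, and 9 (0.0396%) held one in the 5′ UTR. A match lay in the 3′ UTR of 12 mRNAs (0.0527%) and in the coding sequence of 35 (0.154%). The windows of 30 bases below show these matches, because they are the sequence feature that sets the ferritins and the transferrin receptor apart within the group. The C and the loop are in capitals.
Fth1: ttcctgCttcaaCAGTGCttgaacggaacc
Ftl1: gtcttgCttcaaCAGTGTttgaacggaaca
Tfrc match 1: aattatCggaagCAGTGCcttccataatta
Tfrc match 2: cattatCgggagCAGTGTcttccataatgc
Tfrc match 3: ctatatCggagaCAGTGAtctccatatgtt
Tfrc match 4: aattatCgggaaCAGTGTttcccataattt

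The Fth1 window lies in the 5′ UTR, in exon 1 of 4, at chr19:10057222-10057251 on the plus strand of NCBIM37, the assembly that mm9 names. Its unpaired C is base 36 of the mRNA. The Ftl1 window lies in the 5′ UTR as well, in exon 1 of 4, at chr7:52715148-52715177 on the minus strand, with the C at base 84. Both ferritin hairpins have the same stem bases. All 4 Tfrc windows lie in the 3′ UTR, in exon 19 of 19 on the plus strand of chromosome 16. The first is at chr16:32631305-32631334, the second at chr16:32631684-32631713, the third at chr16:32631749-32631778 and the fourth at chr16:32631796-32631825. In the mRNA of 4890 bases their unpaired C is at bases 3321, 3700, 3765 and 3812, so that the matches span 491 bases. The second Tfrc stem has a G-U pair, and the other 3 have Watson-Crick pairs only. When G-U pairs were allowed, 257 mRNAs (1.13%) held a match, 3 of them held 2 or more, and only Tfrc held 3 or more. Under this setting 111 mRNAs (0.488%) held a match in the 3′ UTR and 130 (0.571%) in the coding sequence. The search covered the letters of the upper stem and loop, so Hamp, Trf, Hmox1, Cp, Mt1 and Mt2 are without these letters in the mRNA searched, which says nothing about binding.

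**Figure D1:**
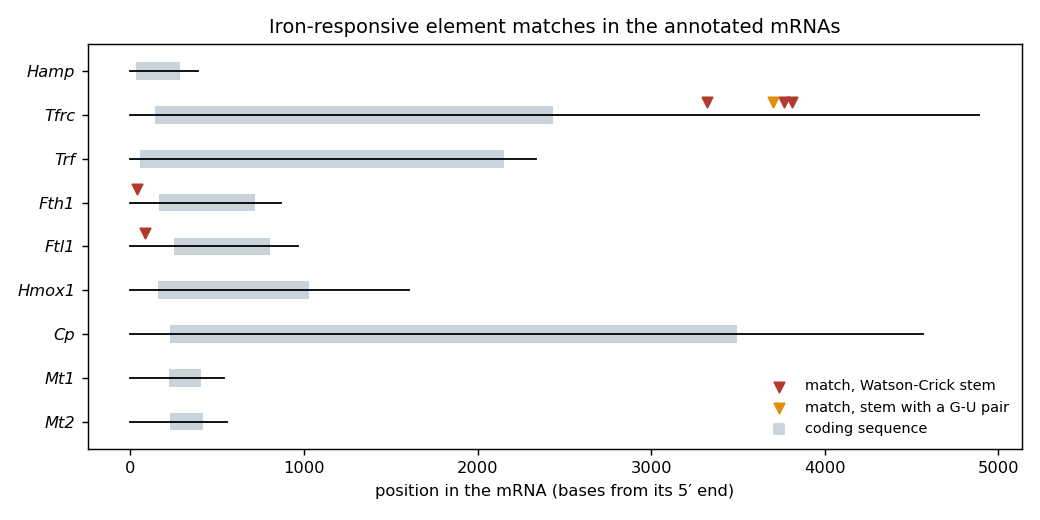
Matches to the iron-responsive element along the annotated mRNAs of 9 genes, in bases from the 5′ end; grey boxes are coding sequence and triangles mark the unpaired C. Fth1 and Ftl1 have 1 match each before the coding sequence, and Tfrc has 4 after it.

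Promoter windows of RefSeq genes (GRCm38.p6), which run from 250 bases before to 50 bases after a gene start, were matched for 8 of the 10 genes. These genes have 13 windows, since Cp, Tfr2, Tfrc and Fth1 have more than 1, and some windows of 1 gene overlap. Trf and Hmox1 have none. The core of the metal-responsive element was searched as TGCACNC or TGCGCNC on both strands, and 25.7% of all 32851 windows held at least 1 match. The Mt2 window held 4 matches and the Mt1 window 3. At least 3 matches were found in 1.97% of all windows, and at least 4 in 0.517%. The matches of Mt1 and Mt2 are printed because Mtf1 acts on the metallothionein genes through these elements. Before the gene start alone, Mt2 held 3 matches, Tfrc 2 that overlap each other, and Mt1 1. These counts depend on the annotated gene start, and no other start was tried. In the annotated mRNAs the coding sequence begins only at base 223 for Mt1 and at base 231 for Mt2. The core is in capitals, and the sequence is that of the gene's strand.
Mt2 match 1: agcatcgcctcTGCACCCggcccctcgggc
Mt2 match 2: cgcagacccttTGCGCTCagctcctttgct
Mt2 match 3: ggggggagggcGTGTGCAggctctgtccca
Mt2 match 4: gaattcgggtcGTGCGCAggcccaggggcg
Mt1 match 1: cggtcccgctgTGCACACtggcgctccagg
Mt1 match 2: ccagggagctcTGCACTCcgcccgaaaagt
Mt1 match 3: cgcccgaaaagTGCGCTCggctctgccaag

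In the Mt2 window the cores begin at -223, -128, -50 and 4 bases from the gene start, where 0 is the first base of the gene. The last 2 lie on the opposite strand and appear above as the reverse complement. The printed windows are at chr8:94172384-94172413, chr8:94172479-94172508, chr8:94172557-94172586 and chr8:94172611-94172640 (GRCm38.p6, plus strand). In the Mt1 window the cores begin at -23, 2 and 20 bases, all on the gene's strand, in windows at chr8:94179055-94179084, chr8:94179080-94179109 and chr8:94179098-94179127. The first Tfrc window also held 2 matches, at -53 and -50 bases, which overlap each other on opposite strands. The antioxidant response element, the site through which Nrf2 acts, was searched as TGACNNNGC on both strands. It was found in 12.4% of all windows and in 1 window of the group, that of Mt2, where the letters TGACTCAGC begin at -79 bases. Hmox1 and Trf have no window and were not searched. None of the windows of Cp, Tfr2, Hamp, Ftl1 and Fth1 held either motif.

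**Figure D2:**
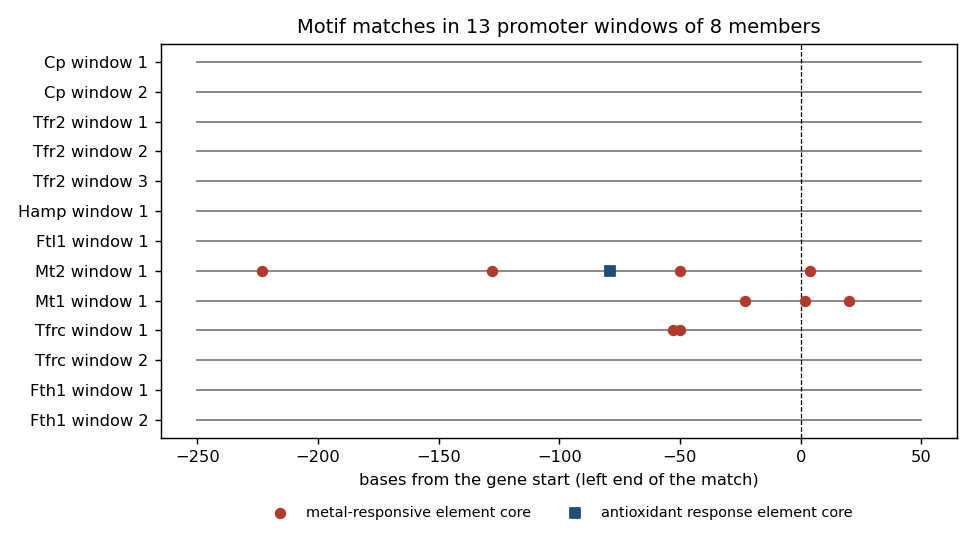
Matches to the metal-responsive and antioxidant response element cores in 13 promoter windows of 8 genes, in bases from the gene start; each grey line is 1 window. Mt2 has 4 and Mt1 has 3 metal-responsive cores, and the only antioxidant response core in these windows is in Mt2. Trf and Hmox1 have no window.

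Levels of different genes are compared here as mean CPM per kilobase of mRNA, the authors' mean CPM divided by the mRNA length in the table. The 7000 listed genes had a median of 6.19 mean CPM per kilobase, and 10% of them exceeded 57.5. All 7 listed genes of the group lay above this median. Their median was 39.5 mean CPM per kilobase, and they ran from 8.01 for Tfrc to 8801 for Trf. The percentiles and ranks below refer to listed genes only, not to all genes expressed in the liver. Alb, Ttr and Cps1, abundant hepatocyte mRNAs, are themselves not listed.

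The plasma carriers were at the top of the order. Trf, on chromosome 9 from 103106331 to 103132774 (NCBIM37, minus strand, 18 exons), had an authors' mean of 20523 CPM on an mRNA of 2332 bases. That is 8801 mean CPM per kilobase, rank 5 of the 7000 listed genes. Trf alone made up 2.05% of the counted reads, and the 7 genes together 2.31%. Cp encodes ceruloplasmin, a copper-carrying plasma ferroxidase that oxidises iron for loading onto transferrin. It lies on chromosome 3 from 19857054 to 19909145 (NCBIM37, plus strand, 20 exons) and had an authors' mean of 2049 CPM. Per kilobase its level was 449 mean CPM, rank 103. The level of Trf per kilobase was 19.6 times that of Cp.

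The receptors of transferrin differed in level. Tfr2, the receptor of hepatocytes that takes part in sensing transferrin-bound iron, had an authors' mean of 397 CPM on 2926 bases, or 136 mean CPM per kilobase, at percentile 94.7 of the listed genes. Tfrc, the receptor for general uptake, lies on chromosome 16 from 32609006 to 32632880 (NCBIM37, plus strand, 19 exons). It had an authors' mean of 39.4 CPM on 4914 bases, or 8.01 mean CPM per kilobase, at percentile 56.8. Per kilobase the level of Tfr2 was 16.9 times that of Tfrc, the lowest of the 7. Tfrc is also the listed gene of the group whose mRNA holds the 4 hairpin matches in its 3′ UTR.

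Hmox1 encodes the inducible haem oxygenase, which opens haem and releases its iron. It lies on chromosome 8 from 77617490 to 77624495 (NCBIM37, plus strand, 5 exons). Its authors' mean was 27.8 CPM, or 17.6 mean CPM per kilobase, at percentile 74.5. Its constitutive relative Hmox2 had 24.3 mean CPM per kilobase.

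The metallothionein genes are neighbours on chromosome 8, Mt2 from 96696518 to 96697467 and Mt1 from 96702989 to 96704225 (NCBIM37, both plus strand, 3 exons). Their promoter windows above are placed on GRCm38.p6, so the 2 sets of positions cannot be compared directly. Mt1 had an authors' mean of 21.4 CPM on 542 bases, or 39.5 mean CPM per kilobase, at percentile 86.5. Mt2 had 4.70 CPM on 556 bases, or 8.46 mean CPM per kilobase, at percentile 58.4. The level of Mt1 was thus 4.67 times that of Mt2 per kilobase. The promoter windows held 3 metal-responsive cores for Mt1 and 4 for Mt2, of which 1 and 3 lie before the annotated gene start. A link between these cores and the levels was not tested. The authors counted unique alignments with up to 2 mismatches. In the annotated mRNAs, 0 of 491 stretches of 50 bases of Mt1 and 0 of 507 of Mt2 matched the other mRNA within 2 mismatches, and the nearest had 5. Their short mRNAs also make these levels depend most on the scale: by mean CPM not divided by length, Mt1 lay at percentile 54.2 and Mt2 at percentile 19.4.

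**Figure D3:**
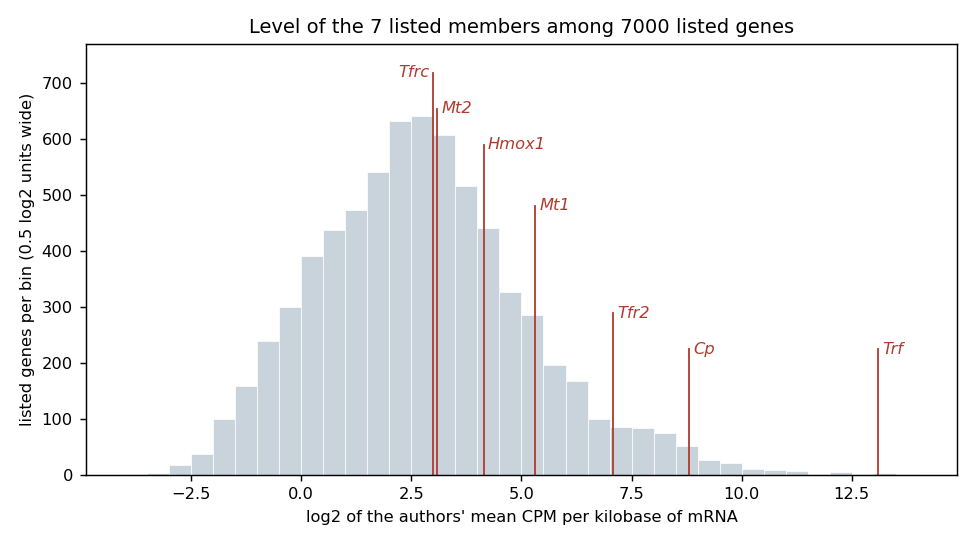
Histogram of the log2 mean CPM per kilobase of mRNA of the 7000 listed genes, in bins of equal width, with a line at each listed gene of the group; line heights carry no value. Tfrc and Mt2 stand near the middle of the listed genes, and Trf stands at the far right.

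From the highest to the lowest level per kilobase the order was Trf, Cp, Tfr2, Mt1, Hmox1, Mt2 and Tfrc. Mt2 and Tfrc differed by a factor of 1.06. The steps above them were 2.08 from Mt2 to Hmox1, 2.24 from Hmox1 to Mt1, 3.44 from Mt1 to Tfr2 and 3.31 from Tfr2 to Cp. Whether neighbours in this order differ by more than the spread between mice could not be judged, because the table has 1 pooled value for each gene. For the same reason, genes with a like pattern over samples could not be named.

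**Figure D4:**
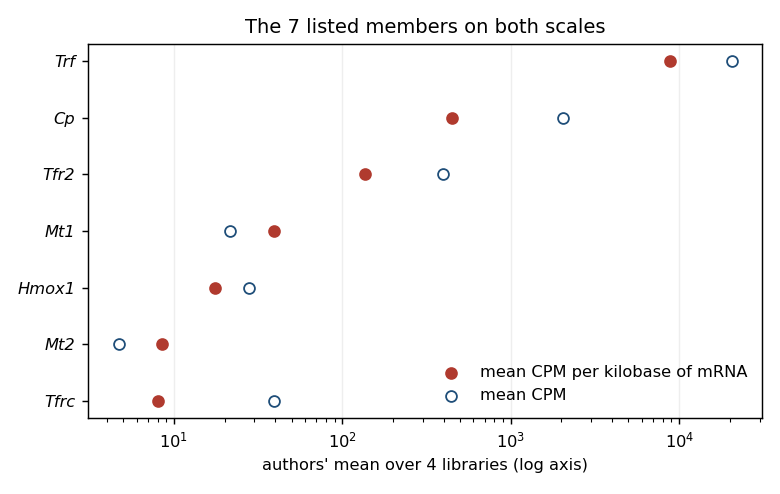
Authors' mean over the 4 libraries for the 7 listed genes on a log axis, as mean CPM per kilobase of mRNA (filled) and as mean CPM (open). Trf, Cp and Tfr2 lead on both scales. Mt1, Mt2 and Tfrc change places, and Hmox1 keeps its own.

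Of 62 further genes of iron, haem, zinc and copper handling, 46 were listed. Among genes of iron import and release, 11 of 16 were listed, with a median of 8.68 mean CPM per kilobase, and 8 lay above the median of all listed genes. The highest were Ncoa4, which delivers ferritin to lysosomes, at 98.2, ferroportin (Slc40a1) at 77.5 and the metalloreductase Steap4 at 51.9 mean CPM per kilobase. Steap1, Steap2, Steap3, Pcbp1 and Slc25a28 were not listed. The longest annotated mRNA of each of the 62 genes was searched for the same hairpin letters. A hairpin with other letters, or only in a shorter mRNA, would be missed. Slc40a1 was the only one of the 62 genes with a hairpin match. It lies in the 5′ UTR, in exon 1 of 8, at chr1:45982309-45982338 on the minus strand of NCBIM37, and is shown because its place matches that of the ferritins.
Slc40a1: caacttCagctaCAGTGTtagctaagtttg

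In the list of hepcidin control, 18 of 22 genes were listed and 7 lay above the median of all listed genes. Their own median was 5.95 mean CPM per kilobase. Il6st, the signalling subunit of the IL-6 receptor, had 51.5, Hfe, the gene of hereditary haemochromatosis, had 26.4, and Stat3, the transcription factor downstream of IL-6, had 23.9 mean CPM per kilobase. Hamp2, Bmpr1a, Smad4 and Tmprss6 were not listed, so no value is given for either hepcidin gene. Of the 3 genes of iron sensing, Ireb2, an iron regulatory protein, was listed with 13.4 mean CPM per kilobase, and Aco1 and Fbxl5 were not.

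Among genes of haem scavenging and breakdown, 6 of 7 were listed with a median of 40.6 mean CPM per kilobase. Hemopexin (Hpx), which binds free haem in plasma, had 2711 mean CPM per kilobase, and haptoglobin (Hp), which binds free haemoglobin, had 1314. Both levels lay between those of Trf and Cp. Lrp1, the receptor for hemopexin-bound haem, had 56.9 mean CPM per kilobase, and Blvrb was not listed.

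Of the metallothionein and zinc list, 5 of 8 were listed with a median of 11.8 mean CPM per kilobase. The zinc transporters Slc39a1, Slc39a4 and Slc30a1 had 45.5, 24.2 and 11.8 mean CPM per kilobase. Mtf1, the factor that binds metal-responsive elements, had 3.08. Mt3, Mt4 and Slc30a10 were not listed. Of the copper list, 5 of 6 were listed with a median of 44.3 mean CPM per kilobase. The chaperone Atox1 had 87.7, Commd1 had 44.6 and the importer Slc31a1 had 44.3 mean CPM per kilobase, and Ccs was not listed.

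**Figure D5:**
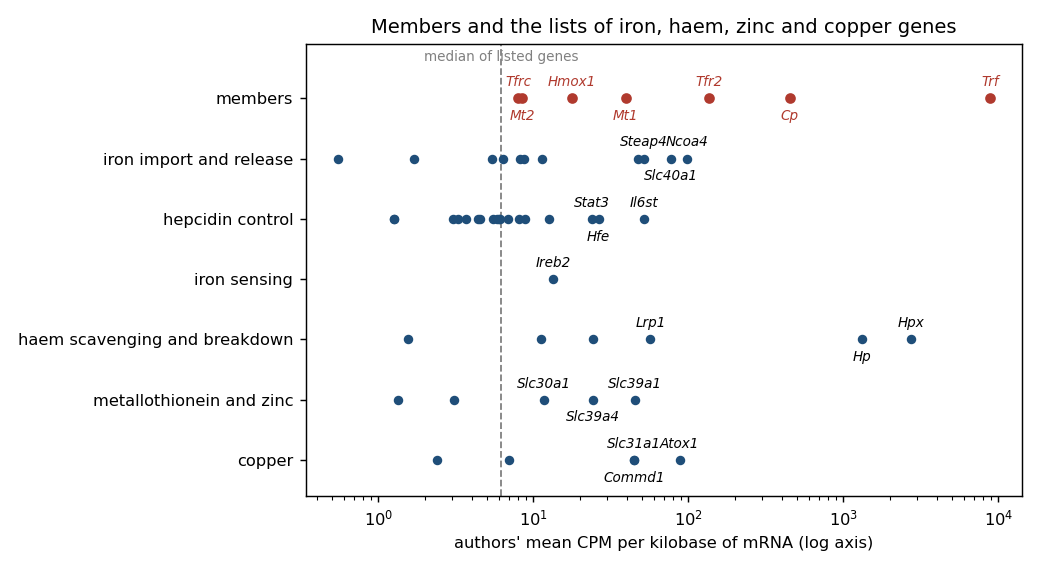
Mean CPM per kilobase of mRNA on a log axis for the 7 listed genes of the group and for the listed genes of 6 related lists, with the names of the 3 highest in each; the dashed line is the median of all listed genes, 6.19. Hpx and Hp are the only genes of the lists between Trf and Cp.

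The labelled tissue was checked against markers. The hepatocyte markers Apoa1, Serpina1c and Tat had 7619, 1290 and 595 mean CPM per kilobase, and the other 3 of 6 were not listed. All 5 Kupffer cell markers were listed (Adgre1 under its older symbol Emr1), from 5.15 for Marco to 74.8 for Clec4f. Of the endothelial markers 3 of 4 were listed, from 8.52 to 16.4 mean CPM per kilobase, and all 4 stellate cell markers were, from 1.03 to 11.1. Of the erythroid markers only Alas2 was listed, with 19.1, and of the lymphocyte markers only Ptprc, with 3.93. The part of these cells in the levels of the iron genes was not tested.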

How the data were processed

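Libraries of rRNA-depleted liver RNA from 4 mice were sequenced by the authors (50 cycles). Reads were aligned by them with Bowtie to RefSeq mRNAs of mm9, 1 longest isoform for each gene, keeping unique alignments with up to 2 mismatches. The deposited log2 mean CPM was made by the authors with edgeR over all 4 libraries, for genes above 1 CPM in at least 3 samples. Tool versions were not stated.

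The deposited table also holds a log fold change between the diets, a p-value and an FDR. These are the authors' own comparison and were not used. Its 7000 rows are sorted by that p-value, so whether a gene is listed depends on the comparison. The planned edgeR and DESeq2 tests need counts of each mouse and were not run.

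Mean CPM was taken as 2 to the power of the deposited log2 value and divided by the mRNA length. Percentiles are shares of listed genes at or below a level. Of the listed genes, 6786 were matched by symbol to GENCODE vM1 on NCBIM37, and 5071 have a longest transcript within 10% of the listed length. For the group the transcript nearest to the listed length was searched, or the longest one for genes not listed. The 7 printed mRNA windows were checked against the genome. The motif search was tested on simulated data. The genes named are the 10 of the group, and of each related list the 3 highest per kilobase and those not listed; Mtf1, Hmox2 and the markers with values were named after their values were seen. The genes and lists were chosen with earlier results of these data known. Scripts ran under Python 3.11.15 with pandas 2.3.3 for tables, scipy 1.17.1 for intervals and matplotlib 3.10.9 for plots.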

Additional observations from a re-analysis of the deposited data

How the results depend on the processing

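The values rest on 1 pooled level for each gene. No paired analysis was possible because the table has no column for single mice and the diets share no mouse number. For the diet comparison, DESeq2, its size factors, no filter on low counts and the omission of each mouse were not run for the same reason. The limit below for a moved percentile was the exact 95% binomial interval of the share of genes, which covers counting of genes and not mice. By mean CPM not divided by length, the percentiles were 99.99 for Trf, 99.5 for Cp, 97.0 for Tfr2, 54.2 for Mt1, 60.8 for Hmox1, 19.4 for Mt2 and 69.9 for Tfrc, and 4 of 21 pairs of genes changed their order. Among genes with a mean of at least 5 CPM, the percentiles were 98.2 for Cp, 93.3 for Tfr2, 83.0 for Mt1, 68.0 for Hmox1 and 45.8 for Tfrc, with no value for Mt2, whose mean is lower. Tfrc thus moved below the middle of the genes compared. With the longest annotated transcript as the length, they were 85.6 for Mt1, 75.7 for Hmox1, 60.4 for Mt2 and 59.0 for Tfrc, with no value for Tfr2. Trf stayed within the limit under the last 2 settings and Cp under the last. The counts of genes with a hairpin match (3, with G-U pairs allowed) and with a metal-responsive core (3, before the gene start only) were the same. Before the gene start the cores themselves fell from 4 to 3 for Mt2 and from 3 to 1 for Mt1. Tfrc kept 2 there, which overlap each other on opposite strands. The fall for Mt1 and Mt2 depends on the annotated gene start, and no other start was tried.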

Other observations

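Among the annotated mRNAs with a Watson-Crick hairpin match in the 5′ UTR, some belong to genes outside the group and the related lists. Of these, Nudt12 had 26.8, Hiatl1 12.9 and Serpina3g 3.14 mean CPM per kilobase. These genes were named after the search was run.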
